A study of Mus musculus with 7 samples.

Results

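These results concern 10 genes of the vascular growth pathways that thrombospondin-1 (TSP1), a secreted matrix glycoprotein, is known to restrain: the ligands Vegfa and Vegfb, the receptors Flt1, Kdr and Nrp1, the angiopoietins Angpt1 and Angpt2 with their receptor Tek, the endothelial nitric oxide synthase Nos3, and the protease Adamts1. The genes were listed by name for their known roles, and each was found by its Ensembl identifier among the 25467 genes of the count table. All 10 had a row, and all 10 were among the 17211 genes with enough counts to be tested. The RNA came from the medial prefrontal cortex (mPFC) of 7 mice, 4 labelled as treated with rhTSP1 (recombinant human TSP1) and 3 labelled PBS (phosphate-buffered saline, the vehicle). The groups are called TSP1 and PBS below. The strain, genotype, age and sex of the mice and the dose, route and timing of treatment were not stated in the labels.

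Vascular endothelial growth factor A (VEGF-A), made in the cortex by neurons and glia, drives vessel growth by activating VEGF receptor 2, the product of Kdr, on endothelial cells. VEGF receptor 1, from Flt1, binds the same ligand tightly and largely acts as a decoy, and neuropilin-1, from Nrp1, is a co-receptor. Angiopoietin-1 keeps the receptor TIE2, from Tek, active and vessels quiet, whereas angiopoietin-2, released by endothelium, can oppose it. Nitric oxide from endothelial nitric oxide synthase relaxes vessels through soluble guanylate cyclase and cyclic GMP. TSP1 is known to inhibit VEGF and nitric oxide signalling through its receptors CD36 and CD47, and ADAMTS1 is a protease that cleaves proteoglycans and can bind VEGF.

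Library totals ranged from 15090336 to 20755167 counts, and the standard error of a log2 fold change had a median of 0.11 over all genes tested. The tissue held neuronal marker RNA in every library, with a summed level of 5490 to 5710 CPM (counts scaled to each library's effective size) over 8 markers with TSP1 and 4990 to 5650 with PBS. TSP1 replicate 4 stood apart from the other libraries. Its summed striatal markers reached 437 CPM, against 144 to 183 in the other 6 libraries, and its summed myelin markers reached 8680 CPM, against 3160 to 6020. Values without that library are given below for some of the fold changes, ratios and relative levels.

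No difference between TSP1 and PBS was detected for any of the 10. By edgeR's quasi-likelihood method 0 of the 10 had a false discovery rate (FDR) under 0.05, where 0.0% of all 17211 genes did, and 0 of the 10 had an unadjusted p under 0.05, where 9.65% of all genes did. The smallest adjusted p among them was 0.663. DESeq2, edgeR's exact test and limma-voom also called 0 of the 10, against 0.541%, 0.494% and 0.0% of the genes each of them tested. Fitted log2 fold changes (TSP1 over PBS) ranged from -0.27 to 0.09, with a median of -0.10 beside a median of 0.00 over all genes tested. They were below 0 for 8 of the 10 genes, against 48.9% of all genes, and the median was -0.02 without TSP1 replicate 4. The groups did not overlap at 1 of the 10 genes, Nrp1, against 10.1% of all genes. In the plot of CPM by library, the values of the other 9 genes interleave.

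**Figure D1:**
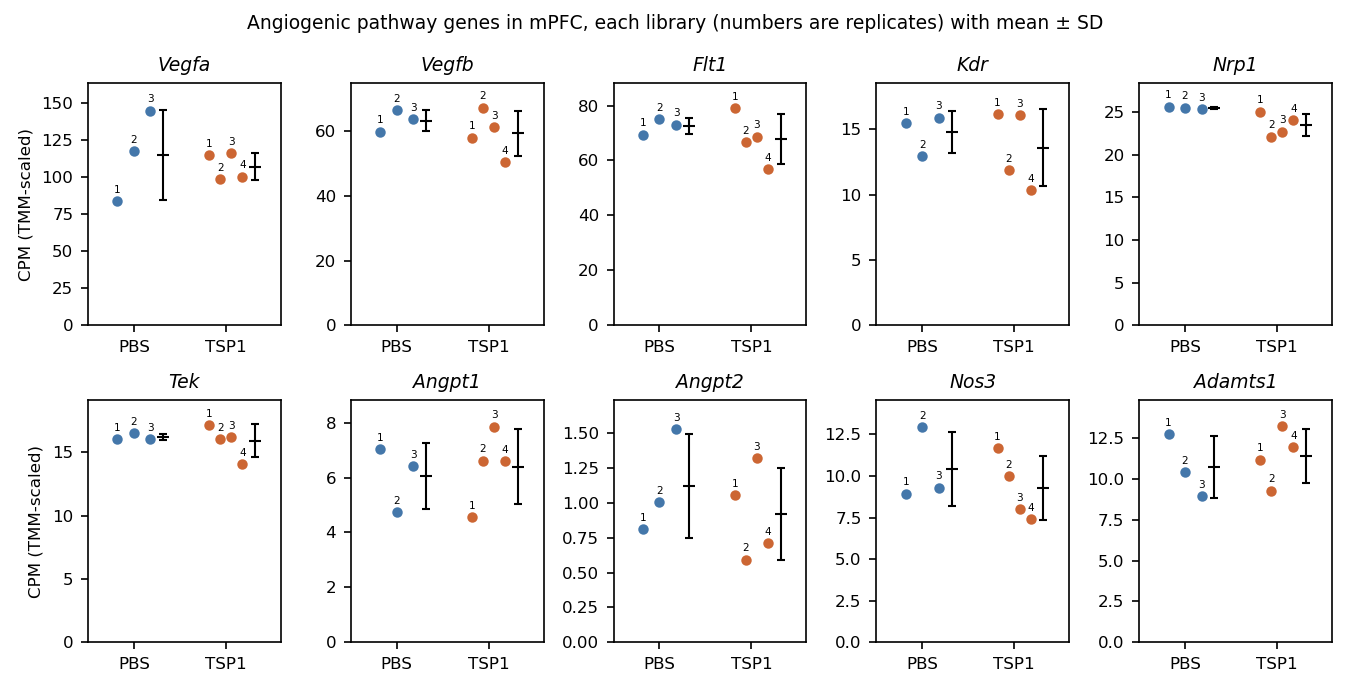
CPM (vertical axes, starting at 0) of the 10 genes in the 3 PBS (blue) and 4 TSP1 (orange) libraries, with replicate numbers beside the points and the mean ± SD of each group in black. The groups overlap for every gene but Nrp1, and TSP1 replicate 4 is the lowest library for Vegfb, Flt1, Kdr, Tek and Nos3.

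The 2 ligand genes were the most abundant per length of transcript. On the RPKM scale (CPM per kilobase of exon), which allows levels of different genes to be compared, Vegfb had 38 ± 3.58 (SD, n = 7) and Vegfa 25.9 ± 4.5 (SD, n = 7), and their ranges over the 7 libraries overlapped. Next came Flt1 at 5.17 RPKM, 5.01 times below Vegfa and clear of it in every library, then Tek at 3.4 and Nrp1 at 2.49, each with a range apart from the gene above it. Nos3 at 2.36, Adamts1 at 2.09, Kdr at 1.56 and Angpt1 at 1.2 RPKM followed, and each of them overlapped the gene before it in that order. Angpt2 was the lowest at 0.272 ± 0.0905 RPKM (SD, n = 7), 4.41 times below Angpt1 and apart from it in every library. Exon lengths came from the annotation and count all annotated transcripts, so a gene that uses only a short form is understated.

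**Figure D2:**
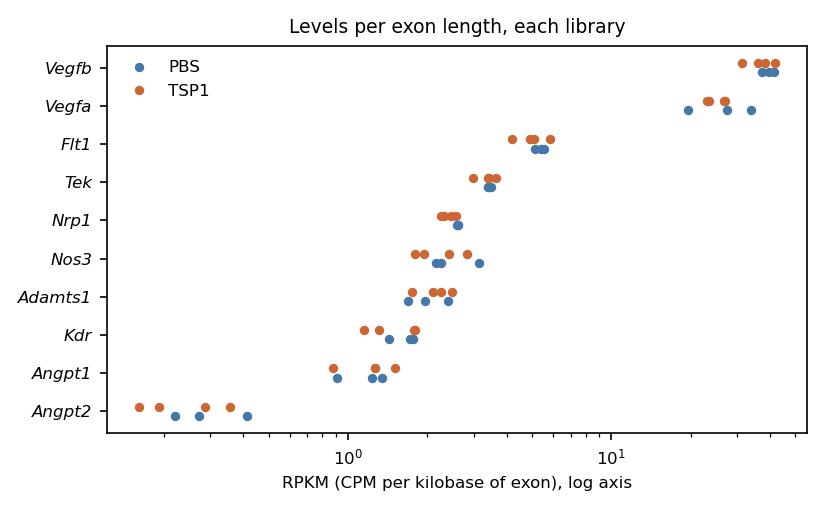
Level per exon length (RPKM, log axis) of each gene in the 3 PBS (blue) and 4 TSP1 (orange) libraries, ordered by mean. Vegfb and Vegfa lie highest, at means of 38 and 25.9 RPKM, and Angpt2 lies lowest, at 0.272.

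Vegfa, the main angiogenic ligand, lies on chromosome 17 from 46016993 to 46032369 on the minus strand (GRCm38; protein-coding, 8 exon blocks). Its CPM values were 115, 98.6, 116 and 100.3 in TSP1 replicates 1 to 4 and 83.8, 118 and 145 in PBS replicates 1 to 3. The PBS libraries thus held both the lowest and the highest value, and all TSP1 values lay between them. The TSP1 mean was 107 ± 9.28 CPM (SD, n = 4), beside a PBS mean of 115 ± 30.5 CPM (SD, n = 3). Its log2 fold change was -0.10 (SE 0.18, 95% interval -0.52 to 0.31, edgeR adjusted p = 0.905). Counting error at this depth is a coefficient of variation of 2.27%, whereas the PBS libraries varied by 26.5%. Each end of the PBS range moved the estimate. Without PBS replicate 1 the log2 fold change of Vegfa was -0.29 (unadjusted p = 0.0105, edgeR adjusted p = 0.461), whereas leaving out PBS replicate 3 gave 0.10.

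Vegfb encodes VEGF-B, a ligand of VEGF receptor 1 alone among these receptor kinases, and lies on chromosome 19 from 6982473 to 6987651. It had 58, 67.3, 61.3 and 50.5 CPM in TSP1 replicates 1 to 4 and 59.8, 66.5 and 63.8 CPM in PBS replicates 1 to 3. TSP1 libraries lay on both sides of the PBS range, with the lowest value in TSP1 replicate 4. In the fit the log2 fold change was -0.10 (SE 0.09, 95% interval -0.28 to 0.09, edgeR adjusted p = 0.773), and it was -0.02 without TSP1 replicate 4. The ratio of Vegfa to Vegfb on the length-scaled level was 0.68 with TSP1 and 0.666 with PBS (geometric means) and ran from 0.524 to 0.85 over the 7 libraries.

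Flt1 (chromosome 5, 147561604 to 147726011) had 79.1, 66.6, 68.7 and 56.8 CPM in TSP1 replicates 1 to 4 and 69.4, 75.2 and 73 CPM in PBS replicates 1 to 3. The highest and the lowest library were both TSP1 libraries, and the PBS values fell between them. The log2 fold change of Flt1 was -0.10 (SE 0.09, 95% interval -0.29 to 0.10, edgeR adjusted p = 0.778), which moved to -0.02 without TSP1 replicate 4 and to -0.18 without TSP1 replicate 1 (unadjusted p = 0.0367, edgeR adjusted p = 0.54).

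Kdr (chromosome 5, 75932827 to 75978458), which encodes the receptor that carries most of the VEGF signal, had 16.2, 11.9, 16.1 and 10.4 CPM in TSP1 replicates 1 to 4 and 15.5, 12.9 and 15.9 CPM in PBS replicates 1 to 3. TSP1 replicates 1 and 3 stood above the PBS libraries, and TSP1 replicates 2 and 4 stood below them. TSP1 over PBS gave a log2 fold change of -0.12 (SE 0.15, 95% interval -0.45 to 0.21, edgeR adjusted p = 0.852), or -0.01 with TSP1 replicate 4 left out. The ratio of Flt1 to Kdr, decoy to signalling receptor, was 3.34 with TSP1 and 3.27 with PBS on the length-scaled level, and it lay between 2.84 and 3.85 in every library.

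Nrp1, the co-receptor gene (chromosome 8, 128358604 to 128503363), was the gene of smallest p among the 10. It had 25.1, 22.1, 22.7 and 24.1 CPM in TSP1 replicates 1 to 4 and 25.7, 25.5 and 25.4 CPM in PBS replicates 1 to 3. All TSP1 libraries lay below all PBS libraries, by as little as the step from 25.1 to 25.4 CPM. The fitted log2 fold change was -0.12 (SE 0.08, 95% interval -0.29 to 0.04, unadjusted p = 0.139, edgeR adjusted p = 0.663), and it was -0.13 without TSP1 replicate 4. The 3 PBS values of Nrp1 varied by 0.572%, less than the 4.81% that counting error alone gives, so these 3 values lie closer together than counting alone would place them. After removal of each library's trend with transcript length and GC content the log2 fold change was -0.19 (unadjusted p = 0.019, edgeR adjusted p = 0.467). A microRNA gene, Mir1903, shares 80 exon bases with Nrp1.

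Tek, which encodes TIE2 (chromosome 4, 94739289 to 94874976), varied less over the libraries than Flt1 and Kdr, with a range of 0.28 log2 units against 0.48 and 0.64. It had 17.2, 16, 16.2 and 14.1 CPM in TSP1 replicates 1 to 4 and 16.1, 16.5 and 16 CPM in PBS replicates 1 to 3. TSP1 replicate 4 was the lowest library and TSP1 replicate 1 the highest, and the PBS values lay between them. For this gene the log2 fold change was -0.03 (SE 0.09, edgeR adjusted p = 0.949), with a 95% interval of -0.23 to 0.17, which corresponds to a level with TSP1 of 0.851 to 1.13 times that with PBS. Without TSP1 replicate 4 it was 0.03.

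The receptor genes Flt1, Kdr and Tek shared their lowest library, TSP1 replicate 4, and their highest, TSP1 replicate 1. TSP1 replicate 4 was also the lowest library for Vegfb and Nos3. Summed markers of endothelial cells were lowest there too, at 385 CPM against 450 to 597 CPM in the other libraries. The 250 bases before the RefSeq start sites of the 3 receptor genes are shown (GRCm38.p6, written 5′ to 3′ on the gene's own strand). Any part of these sequences in the shared extremes was not tested. Capitals mark AGGAAG, an ETS-type motif, and GGGCGG, an SP1-type motif, on either strand. Flt1 is at chr5:147726012-147726261 on the minus strand, Kdr at chr5:75978456-75978705 on the minus strand, and Tek at chr4:94739039-94739288 on the plus strand.

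Flt1: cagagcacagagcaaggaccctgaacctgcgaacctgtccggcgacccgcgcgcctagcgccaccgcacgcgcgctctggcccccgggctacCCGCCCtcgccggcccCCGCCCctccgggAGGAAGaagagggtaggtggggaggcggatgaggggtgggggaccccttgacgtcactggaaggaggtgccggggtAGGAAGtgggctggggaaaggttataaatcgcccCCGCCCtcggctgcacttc
Kdr: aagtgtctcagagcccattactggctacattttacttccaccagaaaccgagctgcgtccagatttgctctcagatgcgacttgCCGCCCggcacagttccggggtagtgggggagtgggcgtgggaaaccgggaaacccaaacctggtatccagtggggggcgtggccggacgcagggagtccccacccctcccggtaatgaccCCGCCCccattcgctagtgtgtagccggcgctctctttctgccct
Tek: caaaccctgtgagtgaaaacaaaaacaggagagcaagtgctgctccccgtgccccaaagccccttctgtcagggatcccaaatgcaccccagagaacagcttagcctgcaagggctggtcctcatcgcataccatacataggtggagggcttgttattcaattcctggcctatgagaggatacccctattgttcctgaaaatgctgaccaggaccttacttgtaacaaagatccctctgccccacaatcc

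The windows differ in these letters. That of Flt1 holds AGGAAG at 2 places and GGGCGG at 3, that of Kdr holds GGGCGG at 2 places and no AGGAAG, and that of Tek holds neither. Of the 10 genes, 7 had a window in the RefSeq table (8 windows, as Vegfa has 2), and Angpt1, Angpt2 and Nos3 had none. AGGAAG was in 2 of these 8 windows and in 29.5% of all 32851 promoter windows, and GGGCGG was in 7 of 8 and in 32.7% of all. ACGTG, the core of the hypoxia response element, was in 1 of the 8, against 16.6% of all. That window, at chr17:46025164-46025413, lies inside the span of Vegfa (46016993 to 46032369, minus strand). The Vegfa window before the start of that span, at chr17:46032378-46032627, holds 0. TGACTCA, the AP-1 motif, was in 0 of the 8 against 4.46% of all. The 3 windows printed also differ in GC content, at 70.4% for Flt1, 61.6% for Kdr and 51.2% for Tek, beside a median of 52.4% over all windows.

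The angiopoietin genes had the lowest mean levels per length, and Angpt2 had the widest interval of the 10 genes. Angpt1 (chromosome 15, 42424723 to 42676977), the agonist of TIE2, had 4.55, 6.62, 7.85 and 6.59 CPM in TSP1 replicates 1 to 4 and 7.02, 4.73 and 6.42 CPM in PBS replicates 1 to 3. Both groups had 1 low library, TSP1 replicate 1 and PBS replicate 2, and the groups overlapped. Its log2 fold change was 0.08 (SE 0.19, 95% interval -0.33 to 0.49, edgeR adjusted p = 0.934), and it turned to -0.03 without TSP1 replicate 3 and to -0.06 without PBS replicate 2. An antisense gene, Gm17473, shares 737 exon bases with Angpt1 but had only 2 to 4 counts in a library, against 69 to 147 for Angpt1.

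Angpt2 (chromosome 8, 18690263 to 18741562) was read from 11 to 25 counts in a library. Its values were 1.06, 0.592, 1.32 and 0.708 CPM in TSP1 replicates 1 to 4 and 0.812, 1.01 and 1.53 CPM in PBS replicates 1 to 3. The groups overlapped, and counting error alone gives a coefficient of variation of 23.9% at this depth, against 36% measured with TSP1 and 33.2% with PBS. In the fit the log2 fold change was -0.27 (SE 0.36, edgeR adjusted p = 0.861), and its 95% interval of -1.05 to 0.51 holds a level of 0.484 to 1.42 times that of PBS, so a change of this order was not detectable at this depth. The log2 fold change was -0.16 without TSP1 replicate 4 and 0.02 without PBS replicate 3. The ratio of Angpt2 to Angpt1 on the length-scaled level was 0.219 with TSP1 and 0.276 with PBS and ran from 0.148 to 0.354 over the libraries, and the groups overlapped. As a log2 difference between groups this was -0.34, or -0.22 without TSP1 replicate 4.

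Nos3, the endothelial nitric oxide synthase gene (chromosome 5, 24364810 to 24384474), had 11.7, 10, 8.01 and 7.41 CPM in TSP1 replicates 1 to 4 and 8.94, 12.9 and 9.29 CPM in PBS replicates 1 to 3. PBS replicate 2 was the highest library and TSP1 replicate 4 the lowest, and the groups overlapped. TSP1 over PBS gave a log2 fold change of -0.17 (SE 0.18, 95% interval -0.54 to 0.21, edgeR adjusted p = 0.814). It was 0.03 without PBS replicate 2 and -0.07 without TSP1 replicate 4. Nos3 shares 294 exon bases with Atg9b and 1040 with the antisense gene Gm15587, both on the opposite strand, and the strand setting of the counting is not known. Atg9b had 68 to 120 counts in a library and Gm15587 had 6 to 25, beside 136 to 219 for Nos3, so reads of Nos3 and of these neighbours may not be told apart.

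Adamts1, the protease gene (chromosome 16, 85793827 to 85803113), had 11.1, 9.26, 13.2 and 11.9 CPM in TSP1 replicates 1 to 4 and 12.7, 10.4 and 8.92 CPM in PBS replicates 1 to 3. The values interleaved, with the lowest in PBS replicate 3 and the highest in TSP1 replicate 3. The fitted log2 fold change was 0.09 (SE 0.15, 95% interval -0.23 to 0.40, edgeR adjusted p = 0.901), or -0.02 with PBS replicate 3 left out.

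Markers of endothelial cells, which express Flt1, Kdr, Tek and Nos3, had fitted values further below 0 than these genes. Of 19 endothelial markers that exclude the 10 genes, 18 had fitted log2 fold changes below 0, against 48.9% of all genes. Their median was -0.23, beside 0.00 over all genes tested. In edgeR's quasi-likelihood test 7 had an unadjusted p under 0.05, against 9.65% of all genes, and 0 passed the FDR threshold. DESeq2 and edgeR's exact test each called 4 of them (Cldn5, Ly6a, Ly6c1 and Vwf), against 0.541% and 0.494% of all genes, and limma-voom called 0. The quasi-likelihood test without PBS replicate 3 called 2, Cldn5 and Vwf (Vwf at -1.11, edgeR adjusted p = 0.00934). Their summed level was 385 to 484 CPM with TSP1 and 494 to 597 CPM with PBS, with no overlap, and no marker was at 0 in any library. Without TSP1 replicate 4 the median was -0.13, with 15 of 19 below 0. In the plot of fold changes with intervals, the markers with the largest decreases are Vwf, the clotting factor carrier of endothelium, at -0.94 (SE 0.17, edgeR adjusted p = 0.171) and Ly6a at -0.96 (SE 0.25, edgeR adjusted p = 0.328), whereas markers such as the drug efflux pump gene Abcb1a at -0.10 (SE 0.12) and the transcription factor gene Erg at -0.02 (SE 0.16) lay at the size of Flt1 and Tek. In bulk tissue, fewer cells of a type and less RNA per cell cannot be told apart.

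**Figure D3:**
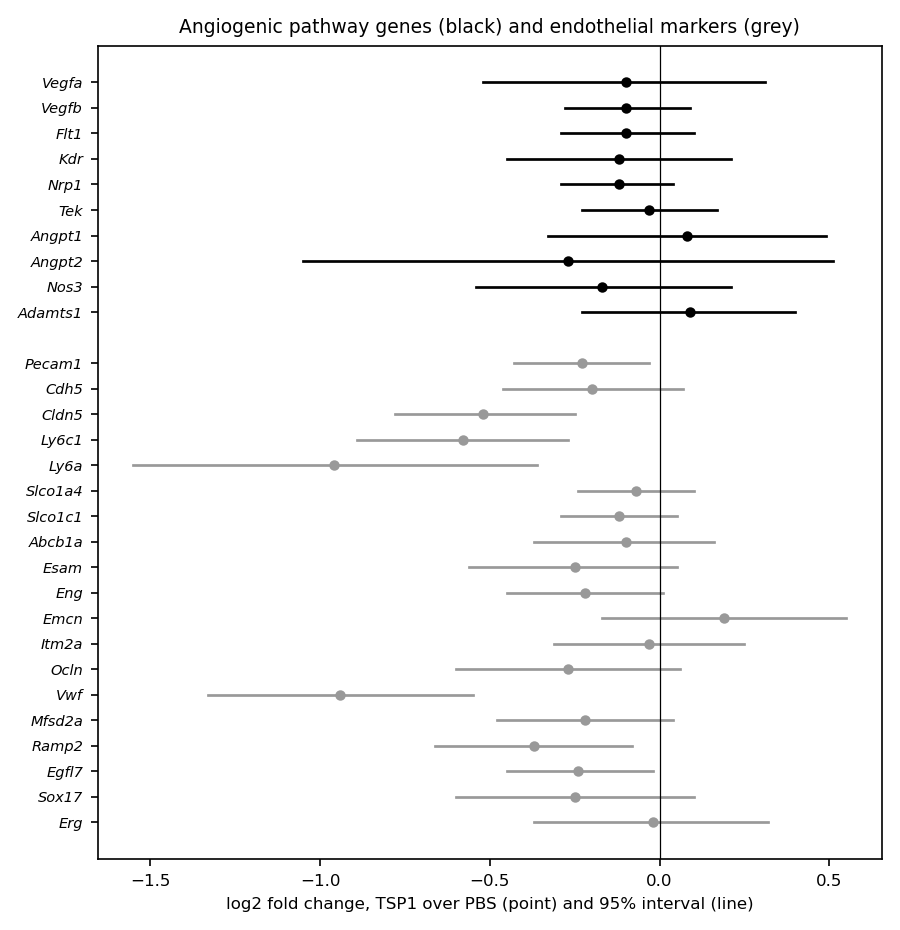
Log2 fold change of TSP1 over PBS (points) with its 95% interval (lines) for the 10 genes (black) and 19 endothelial markers (grey). The intervals of all 10 genes include 0, and that of Angpt2 is the widest, from -1.05 to 0.51.

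Set against the endothelial markers within each library, the 10 genes had higher mean values with TSP1, on a scale that carries the markers' own lower level. The level relative to these markers was taken as log2 CPM minus the mean log2 CPM of the 19 markers in the same library. That marker mean deviated by -0.34 to -0.01 log2 units with TSP1 and by 0.03 to 0.27 with PBS. A gene of unchanged CPM therefore also has a difference above 0 here, and 8 of the 10 had fitted fold changes below 0. The difference between groups (TSP1 minus PBS) was above 0 for all 10, from 0.02 for Angpt2 to 0.38 for Adamts1, and since the same marker mean enters each of them, the 10 differences are not independent. The sign did not hold for each gene under each alternative. Angpt2 was at -0.01 with a prior count of 0.5, at -0.02 without the marker of largest change and at -0.18 without PBS replicate 1, and Vegfa was at -0.02 without PBS replicate 1. Without TSP1 replicate 4 the difference for Adamts1 was 0.28 in place of 0.38. With that library left out it was 0.26 in place of 0.36 for Angpt1 and 0.08 in place of 0.16 for Nrp1. For Tek the groups did not overlap on this scale, at -0.31 to -0.18 with TSP1 and -0.56 to -0.36 with PBS. The difference was 0.25, or 0.24 without TSP1 replicate 4. In CPM the groups overlapped for Tek (log2 fold change -0.03), whereas the subtracted marker mean was itself apart between groups. The share of all genes that are apart on this scale was not computed, so the separation is not read as a result about Tek. For Flt1 the values were 1.77 to 2.00 with TSP1 and 1.57 to 1.82 with PBS, and for Kdr -0.67 to -0.28 and -0.91 to -0.37, and both overlapped. These differences are descriptions with no test. The part that the number of endothelial cells plays in the levels of Flt1, Kdr, Tek and Nos3 was not tested.

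**Figure D4:**
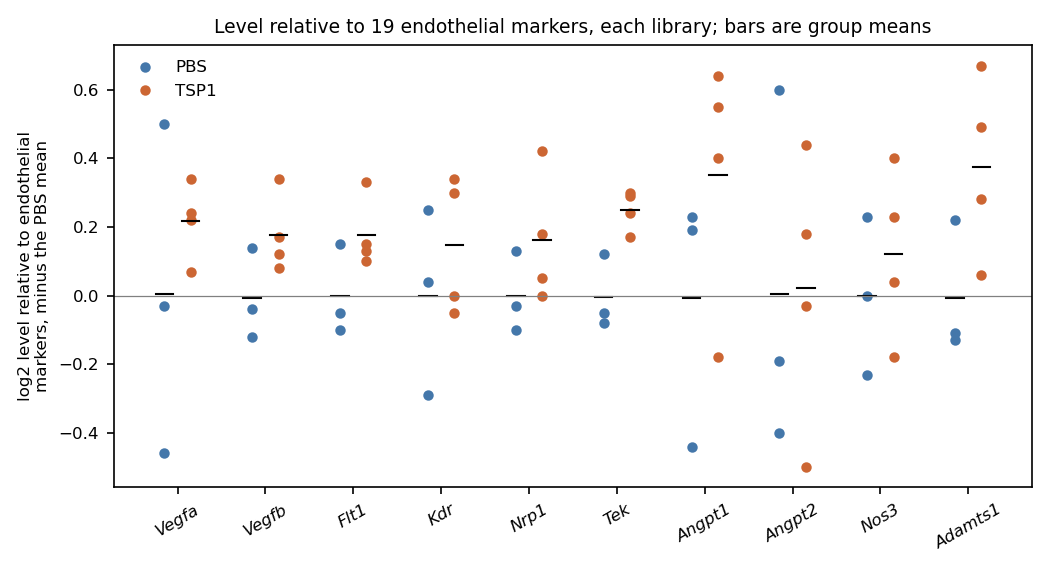
Log2 level of each gene relative to the mean of 19 endothelial markers in the same library, minus the PBS mean (vertical axis), for PBS (blue) and TSP1 (orange) libraries with group means as bars. The groups are apart for Tek, with a difference of 0.25, and overlap for the other 9 genes. The subtracted marker mean is itself apart between the groups.

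Pericyte markers had a median fold change near 0, whereas those of astrocytes, microglia, mature oligodendrocytes and fibroblasts, like those of endothelium, were mostly below 0. Of 11 tested pericyte and smooth muscle markers, 5 were below 0 (median 0.02), with summed levels of 253 to 305 CPM with TSP1 and 268 to 287 with PBS. Single pericyte markers went both ways. Pdgfrb was higher, at 0.25 (SE 0.08, edgeR unadjusted p = 0.00543, adjusted p = 0.313), and Kcnj8 was lower, at -0.54 (SE 0.21, edgeR unadjusted p = 0.0248, adjusted p = 0.449). Of 10 astrocyte markers, 9 had fitted values below 0 (median -0.16), with 5470 to 6720 CPM with TSP1 and 6310 to 7330 with PBS. The lowest astrocyte library was TSP1 replicate 4 by this sum and TSP1 replicate 1 by the mean log2 deviation of the markers (-0.26, against -0.17 in replicate 4). Of 10 microglia markers, all 10 were below 0 (median -0.25), with 439 to 555 CPM with TSP1 and 558 to 643 with PBS, and these sums did not overlap. All 8 myelin markers were below 0 (median -0.17), with 3160 to 8680 CPM with TSP1 and 4770 to 6020 with PBS, and 6 of 8 meningeal and perivascular fibroblast markers were (median -0.22), with 132 to 180 and 154 to 176 CPM. Summed mitochondrial and nuclear-retained transcripts, read as a sign of RNA quality, were 38400 to 46700 CPM with TSP1 and 49200 to 52000 with PBS, with no overlap. By the mean log2 deviation of these genes the groups overlapped, at -0.20 to 0.03 with TSP1 and -0.05 to 0.31 with PBS. Of these 7 genes, 3 had an unadjusted p under 0.05, all lower. In edgeR's quasi-likelihood test 0 genes of these 6 lists passed the FDR threshold. An unadjusted p under 0.05, which 9.65% of all genes had, was found for 2 pericyte, 3 astrocyte, 6 microglia, 0 myelin and 3 fibroblast markers. DESeq2 and edgeR's exact test each called the astrocyte genes Ntsr2 and S100b and the microglia gene C1qa, against 0.541% and 0.494% of all genes. Limma-voom called none of the 6 lists. Outside these 6 lists, neuronal markers had a median of 0.08 (5 of 8 above 0). Striatal markers had a median of 0.47 (8 of 8 above 0) and tested blood cell markers 0.32 (4 of 5 above 0). The highest striatal sum was in TSP1 replicate 4 and the highest blood cell sum in TSP1 replicate 3. The part of these cell types and of RNA quality in the levels of the 10 genes was not tested.

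The other genes of the same pathways were read from lists of known members. Over all genes tested, 48.9% had fitted values below 0, 9.65% had an unadjusted p under 0.05 and 10.1% did not overlap between groups. These shares stand beside the counts of each pathway list below. Among 8 other VEGF ligands, receptors and co-receptors 0 passed the FDR threshold in edgeR and 4 had fitted values below 0 (median -0.02). The lymphatic ligand gene Vegfc had the smallest p of these, with 3.83, 3.71, 6.09 and 4.47 CPM in TSP1 replicates 1 to 4 and 2.87, 3.07 and 3.24 CPM in PBS replicates 1 to 3. Its groups did not overlap (0.57 ± 0.21 SE in log2 fold change, edgeR adjusted p = 0.401). Of 8 tested genes of the angiopoietin and TIE system, 4 were below 0 (median -0.06) and 0 had an unadjusted p under 0.05. Svep1, a matrix protein gene, had the smallest p there (0.69 ± 0.40 SE in log2 fold change, edgeR adjusted p = 0.621), from 0.66 to 1.48 CPM with TSP1 and 0.43 to 0.887 CPM with PBS. Without TSP1 replicate 4 the log2 fold change of Svep1 was 0.58.

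In the nitric oxide and cyclic GMP list 11 of 15 genes had fitted values above 0 (median 0.03). In edgeR 4 had an unadjusted p under 0.05, against 9.65% of all genes, and 0 passed the FDR threshold. The list holds 3 subunit genes of soluble guanylate cyclase, the nitric oxide receptor enzyme, and all 3 had fitted values above 0. Gucy1b1, the beta subunit gene, had 177, 183, 197 and 165 CPM in TSP1 replicates 1 to 4 and 150, 160 and 154 CPM in PBS replicates 1 to 3, with no overlap (0.22 ± 0.07 SE in log2 fold change, unadjusted p = 0.00569, edgeR adjusted p = 0.313). Gucy1a1, an alpha subunit gene, had 80.5 to 104 CPM with TSP1 and 73.1 to 86.5 CPM with PBS (0.26 ± 0.09 SE in log2 fold change, edgeR adjusted p = 0.373). Gucy1a2, the other alpha subunit gene, did not reach that unadjusted threshold, with 16.4 to 21.8 CPM with TSP1 and 12.9 to 18.2 CPM with PBS (0.26 ± 0.13 SE in log2 fold change, unadjusted p = 0.0645, edgeR adjusted p = 0.551). The other 2 genes with an unadjusted p under 0.05, both endothelial regulators of the synthase, were lower. Cav1, whose product caveolin-1 holds the synthase inactive, had 12 to 15 CPM with TSP1 and 15.3 to 16.5 with PBS (-0.24 ± 0.10 SE in log2 fold change, edgeR adjusted p = 0.473). Nostrin, which encodes a trafficking protein of the synthase, had 2.21 to 3.51 and 3.61 to 4.34 CPM (-0.45 ± 0.20 SE in log2 fold change, edgeR adjusted p = 0.511).

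Of 7 other ADAMTS and inhibitor genes 1 had an unadjusted p under 0.05, Adamts9, a relative of Adamts1, at a log2 fold change of -0.51 (SE 0.22, edgeR adjusted p = 0.481) with 2.24 to 3.73 CPM with TSP1 and 3.31 to 4.46 CPM with PBS. Of 19 signalling genes downstream of VEGF receptor 2, 9 were below 0 (median 0.00) and 0 had an unadjusted p under 0.05. The sphingosine kinase gene Sphk1 had the smallest p of these, at -0.53 (SE 0.27, edgeR adjusted p = 0.559), or -0.37 without TSP1 replicate 4.

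Of 9 tested genes of sprouting, VEGF-stimulated endothelium, 5 were below 0 (median -0.09). An unadjusted p under 0.05 was found for 2 of them, against 9.65% of all genes. Apln, which encodes the vascular peptide apelin, had 20.2, 23.2, 25.7 and 25.8 CPM in TSP1 replicates 1 to 4 and 27.6, 30.8 and 41.3 CPM in PBS replicates 1 to 3. All TSP1 libraries lay below all PBS libraries (-0.48 ± 0.13 SE in log2 fold change, unadjusted p = 0.00419, edgeR adjusted p = 0.302). Without PBS replicate 3, the highest library for Apln, its log2 fold change was -0.29 (edgeR adjusted p = 0.69). Of 15 tested hypoxia factors and targets, of which the factors activate Vegfa transcription, 10 were below 0 (median -0.07). Against 9.65% of all genes, 5 of the 15 had an unadjusted p under 0.05, 4 of them lower. P4ha1, a collagen prolyl hydroxylase gene, had 51.3 to 55.5 CPM with TSP1 and 61.3 to 67.3 with PBS (-0.25 ± 0.07 SE in log2 fold change, edgeR adjusted p = 0.256). Of these 7 pathway lists 0 genes passed the threshold in edgeR's quasi-likelihood test, and DESeq2, edgeR's exact test and limma-voom called 0 as well.

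**Figure D5:**
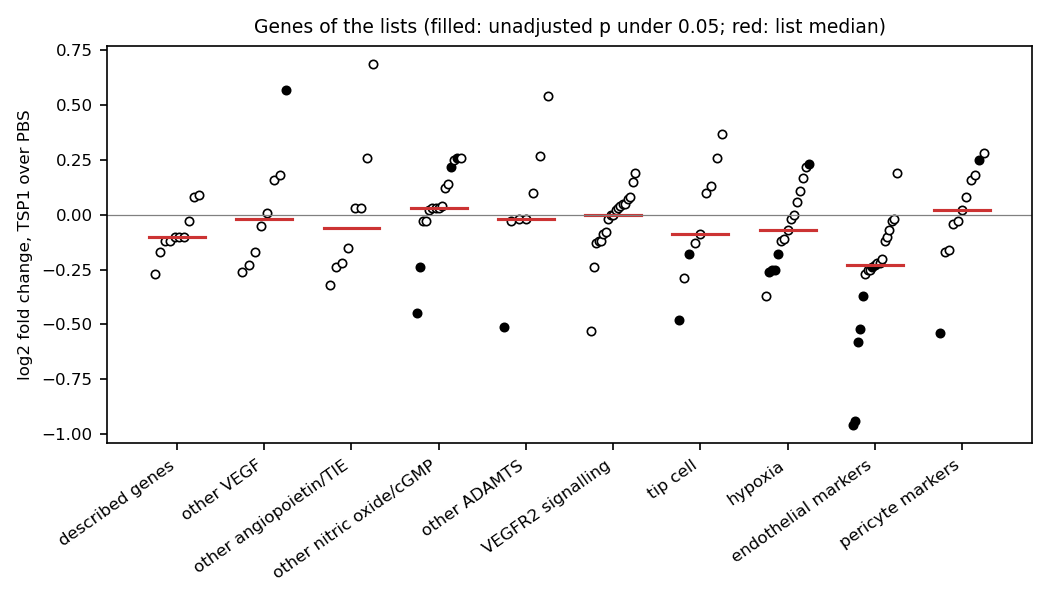
Log2 fold change of TSP1 over PBS (vertical axis) for each tested gene of the 10 described genes, 7 related pathway lists and 2 vascular marker lists, with filled points at an unadjusted p under 0.05 and red bars at list medians. No point of the described genes is filled, and the endothelial markers have the lowest median, at -0.23.

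The 3 genes that varied most over the 7 libraries were Angpt2, Nos3 and Vegfa, with ranges of 1.22, 0.80 and 0.79 log2 units. Genes of like profile were taken as those whose log2 CPM, each centred on its own mean over the 7 libraries, differed least on average from that of the gene. For Vegfa these were Tle6, Cabyr and Deptor, with mean absolute differences of 0.05, 0.07 and 0.07. For Nos3 they were Tmem145, Slc9b2 and Kcnh4, at 0.07, 0.08 and 0.08, and for Angpt2 they were Slc16a8, Slc13a4 and Il12a, at 0.11, 0.12 and 0.12. With 7 libraries and so many genes to choose from, this likeness is a description only.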

How the data were processed

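The deposited table holds raw read counts per gene for 7 mPFC libraries, as judged from its whole numbers and unequal totals. Libraries were made with the SMARTer mRNA kit from 1.3 µg of total RNA, per the labels' protocols, and the submitters' processing notes name GRCm38 and mm10. Those notes leave the aligner, the counter and its strand setting not given in the sources used here. Each count column carries the number that opens the label's description of a sample. These numbers are 1 to 4 for TSP1 and 8, 11 and 12 for PBS, so if they give a processing order, order and treatment cannot be told apart in any comparison. The count of columns from other samples was 0.

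Identifiers were matched to GENCODE M21 (25375 of 25467) for symbols, coordinates and exon lengths. Replicates differed by more than sampling noise (chi-square per degree of freedom 4.26 to 14.7). Groups were tested with edgeR 4.0.16 (R 4.3.3), using filterByExpr, TMM scaling and a robust quasi-likelihood fit of group, two-sided, with Benjamini-Hochberg adjustment over all 17211 genes tested. Standard errors (SE) were derived from the fold change and its F statistic. CPM use TMM effective library sizes. Log2 levels used a prior count of 2. P-values set the groups against the spread between libraries, each from a different mouse as the series states. Alternatives were RLE size factors, DESeq2 1.42.0, edgeR's exact test, limma 3.58.1 voom, other low-count filters, a replicate block, a length and GC correction, and leaving out each library. Leaving libraries out of the relative levels and ratios was added after the data were seen. The scripts were tested on simulated counts.

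The genes and lists were chosen with earlier results of these data known. The naming rule took the 10 genes, any listed gene past the FDR threshold, the gene of smallest p in each pathway list and the 3 nearest profiles (mean of at least 1 CPM, no members or predicted genes) of the 3 most variable genes. Other genes named beside their lists were chosen after their values were seen.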

Additional observations from a re-analysis of the deposited data

Results flagged for a closer look

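Among the 4 TSP1 libraries, 47 values were screened for a library far from the other 3, and 4 were marked, where chance marks about 1 in 20. The log2 ratio of Vegfa to Vegfb was -0.87 in TSP1 replicate 2, against -0.50 to -0.43 in the other 3, and the PBS libraries spanned -0.93 to -0.24. Summed striatal markers were 437 CPM in TSP1 replicate 4, and summed mitochondrial and nuclear-retained transcripts were 38400 CPM in the same library, against 45500 to 46700 in the other 3 and 49200 to 52000 with PBS. Summed blood cell markers were 336 CPM in TSP1 replicate 3, against 46.5 to 85.7 in the other 3.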

How the results depend on the processing

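No alternative called any of the 10 genes, and their smallest adjusted p over 15 alternatives was 0.461. The count of all genes past the threshold was 0 in the main analysis, 87 with DESeq2, 85 with edgeR's exact test, 19 without a low-count filter and 0 to 9 when single libraries were left out (1 without TSP1 replicate 2, 1 without PBS replicate 1, 9 without PBS replicate 3, Cldn5 and Vwf among them). Signs near 0 turned. The log2 fold change of Vegfb was 0.01 after the length and GC correction and that of Tek 0.02 with the replicate block. Left-out libraries moved Vegfa from -0.29 to 0.10, Tek from -0.07 to 0.03, Angpt1 from -0.06 to 0.21, Angpt2 from -0.51 to 0.02, Nos3 from -0.29 to 0.03 and Adamts1 from -0.02 to 0.24. The cause was not tested. Flt1, Kdr and Nrp1 kept their sign in all 15. Angpt2 was not tested with at least 5 CPM in 3 libraries. Same-numbered libraries did not deviate together (correlations -0.261, -0.033 and 0.01). The labels do not say whether the numbers pair the mice, and correlations within so few libraries cannot decide it. With the block 0 genes were called, and TSP1 replicate 4, with no partner, did not enter the estimate. The relative levels and ratios moved by less than the spread between libraries in each alternative run, but signs turned for Angpt2 and Vegfa (relative level). Signs also turned for the log2 ratios Flt1 to Kdr and Vegfa to Vegfb, both at -0.01 without TSP1 replicate 4. Over all left-out libraries these 2 differences ran from -0.04 to 0.15 and from -0.14 to 0.21. Depth limits Angpt2 most, at 11 to 25 counts a library.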

Other observations

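Among the 3 PBS mice, Vegfa ran from 83.8 to 145 CPM. The highest library for Vegfa, PBS replicate 3, was also the highest for Apln, at 41.3 CPM against 27.6 and 30.8 CPM in the other 2, and for Angpt2, at 1.53 CPM against 0.812 and 1.01. The Angpt2 values rest on 25 counts there, against 17 in each of the other 2. Of the 10 genes, 2 were highest and 1 (Adamts1, at 8.92 CPM) was lowest in PBS replicate 3 over the 7 libraries. PBS replicate 3 was the lowest of the 3 for the summed endothelial markers, at 494 CPM against 579 and 597. The same library had the highest sums of astrocyte markers, at 7330 CPM, and of mitochondrial and nuclear-retained transcripts, at 52000 CPM. No sample label separates these mice.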
